A study of Mus musculus with 15 samples.

Results

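Myeloid C-type lectin receptors are surface proteins of granulocytes, monocytes, macrophages and dendritic cells. The 10 genes described here, Clec4a1, Clec4a2, Clec4a3, Clec4b2, Clec4d, Clec4e, Clec7a, Clec10a, Clec12a and Olr1, were taken by symbol from 23337 gene symbols in the deposited count files, and each symbol was found. They were selected on the difference in count between Trappc1 KO and WT libraries numbered 1 and 2, where several of them were much lower in KO, so that difference is given below as a description with no test. The Trappc1 protein is part of the core of the TRAPP complexes, which hold vesicles to their target membranes on the route through the Golgi. RNA was sequenced from untreated mouse bone marrow cells sorted into 2 progenitor gates. Granulocyte-monocyte progenitors (GMP) were negative for lineage markers and Sca1, positive for CD117 and CD34 and high for CD16/32. Common myeloid progenitors (CMP) passed the same gates but were low for CD16/32. The groups were Trappc1 KO GMP (n = 3, numbered 1, 3 and 4), Trappc1 WT GMP (n = 4), Trappc1 KO CMP (n = 4) and Trappc1 WT CMP (n = 4). The labels give no age, sex, strain, Cre driver or deleted part of Trappc1. Nothing in them says that the libraries of a group are from different mice. The p-values below therefore describe only how these libraries scatter, which may be technical in part.

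These receptors carry a lectin-like domain outside the cell that binds sugars, lipids or crystals. What they do next depends on the inner tail or on a partner chain. Clec12a and Clec4a2 have an inhibitory motif (ITIM) that recruits phosphatases such as the product of Ptpn6. Clec7a (Dectin-1, the beta-glucan receptor) has its own activating motif for the kinase Syk, and Clec4e (Mincle) and Clec4d (MCL) signal through the Fc receptor gamma chain encoded by Fcer1g. All of these routes are best known from mature myeloid cells, which arise from progenitors of the kind sorted here. Because the samples are bulk RNA, fewer cells of a type and less RNA per cell cannot be told apart in any value below.

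The libraries held between 15.3 M and 30.1 M fragments each, with 4 deposited units assumed to be 1 fragment. Levels are CPM, counts scaled to a common library size after TMM scaling, and the values of a group are given in the order of its library numbers. Trappc1 itself measured 6.12 to 24.96 CPM in KO GMP and 30.8 to 41.3 CPM in WT GMP, and 3.83 to 13.5 CPM in KO CMP and 18.6 to 26.5 CPM in WT CMP, so every KO library lay below every WT library of its cell type. The KO libraries numbered 1 and 2 stood apart from all others. They held Xist, the X-inactivation RNA, at 124 CPM in GMP and at 109 and 204 CPM in CMP, while no other library exceeded 2.18 CPM. The WT CMP libraries also differed among themselves. Fcgr3, which encodes CD16 and so belongs to the sorting gate, measured 100 and 116 CPM in WT CMP 1 and 2 but 37.0 and 39.1 CPM in WT CMP 3 and 4. The granule protease Elane measured 3517 and 3915 CPM in WT CMP 1 and 2, 1032 and 1179 CPM in WT CMP 3 and 4, and 7240 to 7712 CPM in WT GMP. For these reasons each result is given for numbers 1 and 2 and for numbers 3 and 4, a split that earlier work on these data made after seeing them. Tests compare only numbers 3 and 4, which the choice of genes did not use. The spread behind their p-values was estimated from all 15 libraries, numbers 1 and 2 included. The tests are therefore not wholly separate from the libraries that chose the genes. All 10 genes passed the filter on low counts, which left 16183 genes in the fit. Trappc1 itself did not pass for KO against WT in numbers 3 and 4 of either cell type. Its log2 fold change ± SE there was -0.38 ± 0.19 in GMP and -0.80 ± 0.19 in CMP (edgeR adjusted p = 0.254 in CMP). For numbers 1 and 2 it was -2.69 ± 0.27 in GMP, where KO is 1 library, and -2.25 ± 0.21 in CMP, without a test.

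**Figure D1:**
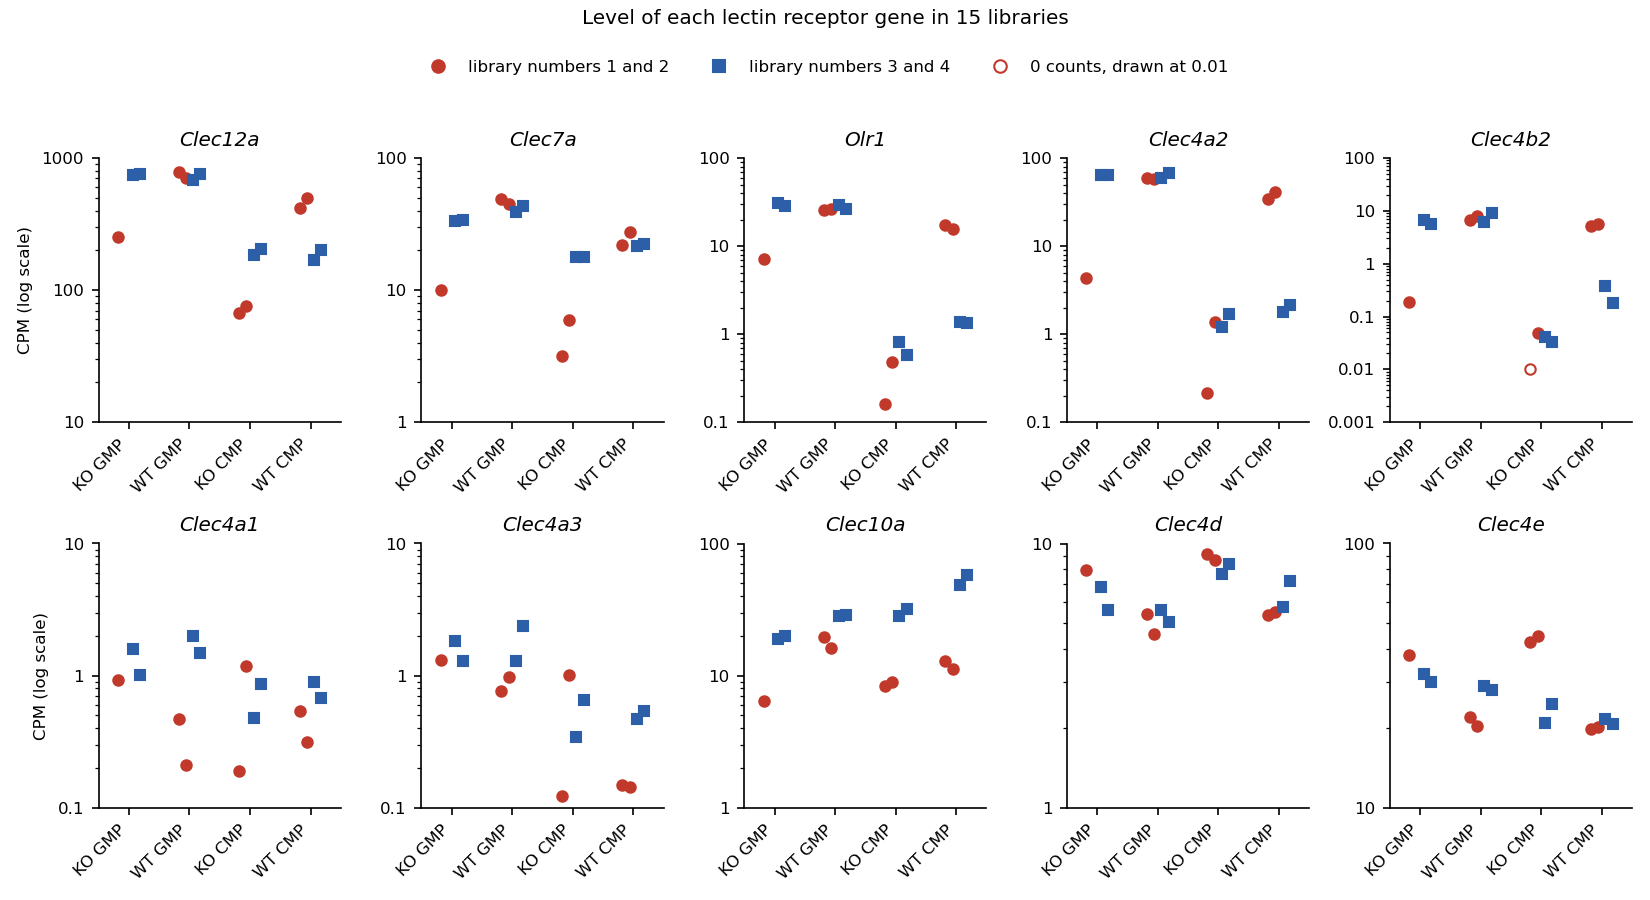
Level of each of the 10 lectin receptor genes in every library. The vertical axes are CPM on a log scale, circles are libraries numbered 1 and 2, squares are libraries numbered 3 and 4, and the open circle marks 0 counts. Clec12a, Olr1, Clec4a2 and Clec4b2 share one pattern, with KO GMP 1 below the other GMP libraries and WT CMP 1 and 2 above the other CMP libraries, while Clec4d and Clec4e are highest, within each cell type, in KO libraries 1 and 2.

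In numbers 3 and 4 most of these genes passed the test between the 2 progenitor gates, and none passed it between the 2 genotypes in the edgeR fit without a block. Between GMP and CMP, 6 of the 10 genes rose in GMP and 1 fell, in KO and in WT alike, and they were the same 7 genes. Clec12a, Clec4a2, Clec4b2, Olr1, Clec7a and Clec4e rose, Clec10a fell, and Clec4a1, Clec4a3 and Clec4d did not pass. Of all tested genes, 16.5% rose and 17.7% fell in KO GMP against KO CMP, and 17.7% rose and 17.8% fell in WT GMP against WT CMP. The median log2 fold change of the 10 genes was 1.31 in KO and 1.51 in WT, beside -0.02 and -0.01 over all tested genes. Between KO and WT, 0 of the 10 genes passed in GMP and 0 of 10 in CMP in that fit. In GMP 0.00618% of all genes passed in each direction, and in CMP 0.00618% passed higher and 0.0% lower. At an unadjusted p below 0.05, 1 of the 10 differed in GMP (Clec10a) and 3 in CMP (Clec10a, Olr1 and Clec4b2), out of 781 and 1744 of all tested genes. With the library number as a block, edgeR called Clec10a lower in CMP (adjusted p = 0.0278), where it called 0.0185% of genes lower. DESeq2 called Clec10a lower in GMP, where it called 0.217% of genes lower, and Clec10a and Olr1 lower in CMP, where it called 0.765% of genes lower. Without overlap between the libraries, 2 of the 10 genes lay above WT in KO GMP (17.6% of all genes) and 2 below it (18.5%), and 1 lay above WT in KO CMP (19.9%) and 5 below it (22.0%). The median of the 10 genes for KO against WT was -0.11 in GMP and -0.26 in CMP, beside 0.0 and -0.01 over all tested genes.

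**Figure D2:**
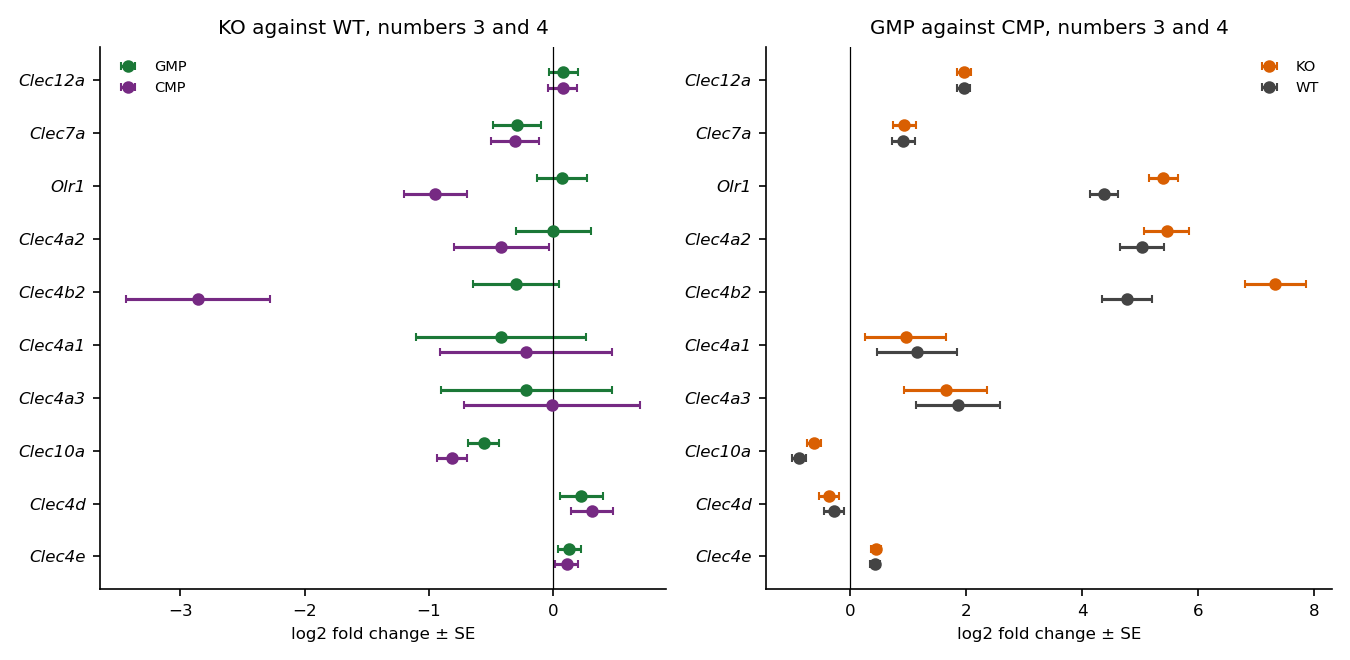
Fold changes within libraries numbered 3 and 4. The horizontal axes are log2 fold changes with their standard error, for KO against WT on the left and for GMP against CMP on the right. On the left most points lie near 0, with Clec10a lower in KO in both cell types and Clec4b2 resting on 2 fragments in KO CMP; on the right 6 genes lie above 0 with a call in both genotypes and Clec10a lies below it.

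Clec12a encodes an inhibitory receptor that recognises uric acid crystals and dampens the activation of neutrophils and monocytes. It lies on chromosome 6 at 129342691 to 129365303, plus strand (ENSMUSG00000053063.11, GRCm38), and its level per kilobase of exon was the highest of the 10 in each group. Clec12a measured 253, 750 and 760 CPM in KO GMP 1, 3 and 4, against 779, 710, 677 and 750 CPM in WT GMP. In CMP it measured 67.7, 76.2, 184 and 206 CPM in KO, against 416, 501, 168 and 202 CPM in WT. KO GMP 1 thus lay far below every other GMP library, while KO GMP 3 and 4 lay within the WT range. The KO CMP libraries 1 and 2 were the lowest of all and the WT CMP libraries 1 and 2 the highest of the CMP, so the CMP groups overlapped only through numbers 3 and 4. Within those numbers Clec12a rose in GMP against CMP by 1.96 ± 0.12 (log2 fold change ± SE; edgeR adjusted p = 5.92e-08) in KO and by 1.96 ± 0.12 (adjusted p = 6.45e-08) in WT. Its difference between KO and WT was 0.08 ± 0.11 in GMP (adjusted p = 1.0) and 0.08 ± 0.11 in CMP (adjusted p = 0.843), and the CMP value changed sign, to -0.061, without WT CMP 3. In numbers 1 and 2, as a description, it was -1.57 ± 0.15 in GMP, where KO is 1 library, and -2.66 ± 0.12 in CMP.

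The promoters of Clec12a, Olr1 and Clec4e are shown because Clec12a and Olr1 moved together across the libraries and Clec4e did not. Each line holds the 250 bases before the start of the RefSeq transcript (GRCm38.p6), from 5′ to 3′ on the gene's strand. Capitals mark matches on either strand to GAGGAAG, an element of the kind bound by PU.1, or to TTGCNNAA, an element of the kind bound by C/EBP factors. Both factor families direct myeloid development. The windows are chr6:129349994-129350243 on the plus strand for Clec12a, chr6:129507166-129507415 on the minus strand for Olr1 and chr6:123289872-123290121 on the minus strand for Clec4e.
Clec12a: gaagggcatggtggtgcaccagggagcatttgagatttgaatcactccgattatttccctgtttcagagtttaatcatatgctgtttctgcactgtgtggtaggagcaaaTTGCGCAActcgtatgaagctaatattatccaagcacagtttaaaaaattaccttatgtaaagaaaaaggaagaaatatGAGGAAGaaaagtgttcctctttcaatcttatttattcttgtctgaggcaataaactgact
Olr1: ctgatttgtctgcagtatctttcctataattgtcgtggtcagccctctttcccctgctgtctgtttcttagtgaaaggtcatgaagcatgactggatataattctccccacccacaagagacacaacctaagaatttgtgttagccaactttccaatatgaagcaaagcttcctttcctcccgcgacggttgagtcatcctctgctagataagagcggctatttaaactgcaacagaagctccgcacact
Clec4e: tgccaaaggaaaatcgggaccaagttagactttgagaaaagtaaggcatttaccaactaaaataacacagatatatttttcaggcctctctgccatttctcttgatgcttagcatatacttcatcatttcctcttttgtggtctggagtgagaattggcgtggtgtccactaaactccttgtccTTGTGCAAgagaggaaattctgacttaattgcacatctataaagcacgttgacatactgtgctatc
In the Clec12a window the C/EBP type letters lay 140 to 133 bases before the start and the PU.1 type letters 61 to 55 bases before it. The Clec4e window held the C/EBP type letters 66 to 59 bases before the start, and the Olr1 window held neither motif. The 9 members with a promoter in the RefSeq table had 11 windows, of which 3 held GAGGAAG (Clec12a, Clec4a1 and Clec4d) and 2 held TTGCNNAA (Clec12a and Clec4e). Over all 32851 promoters of the table, 10.6% held GAGGAAG and 9.56% held TTGCNNAA in a window of the same length. Clec12a and Olr1 correlated at 0.95 in log2 (CPM + 1) across the 15 libraries, and Clec12a and Clec4e at -0.41. Both values include the libraries that chose the genes and are a description.

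Olr1 encodes LOX-1, a scavenger receptor for oxidised low-density lipoprotein, and lies 119.9 kb from Clec12a, at 129485244 to 129507165 on the minus strand (ENSMUSG00000030162.14). It measured 7.18, 30.7 and 28.2 CPM in KO GMP 1, 3 and 4, against 25.6, 26.6, 29.3 and 26.7 CPM in WT GMP. Its CMP levels were 0.162, 0.484, 0.825 and 0.586 CPM in KO, against 17.4, 15.8, 1.38 and 1.33 CPM in WT. Every KO CMP library lay below every WT CMP library, a description because numbers 1 and 2 chose the genes. In numbers 3 and 4 alone, 22.0% of all genes lay lower in KO CMP without overlap. For Olr1, WT CMP 1 and 2 lay between WT CMP 3 and 4 and the GMP level. Among the 10 genes it showed one of the steepest steps between the gates in numbers 3 and 4, with 5.40 ± 0.26 (adjusted p = 7.68e-09) for GMP against CMP in KO and 4.38 ± 0.24 (adjusted p = 2.52e-08) in WT. In the same numbers KO against WT gave 0.07 ± 0.20 in GMP (adjusted p = 1.0) and -0.95 ± 0.26 in CMP (adjusted p = 0.302). The CMP value passed in DESeq2 (adjusted p = 0.00505) and in edgeR without KO CMP 1 (adjusted p = 0.0421, with 0.236% of all genes called lower) or without KO CMP 2 (adjusted p = 0.0427, with 0.237%). Over all its alternatives that adjusted p ran from 0.00505 to 1.0. The description in numbers 1 and 2 was -1.87 ± 0.27 in GMP and -5.64 ± 0.28 in CMP.

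Clec4a2 encodes DCIR, an inhibitory receptor of dendritic and other myeloid cells, and lies at 123106428 to 123143999 on the plus strand of chromosome 6 (ENSMUSG00000030148.15). Of the 50-base windows of its transcript, 8.19% occur unchanged in other genes, among them Clec4a4 and Clec4b1, so a part of its reads could be shared with them. It measured 4.35, 63.4 and 63.7 CPM in KO GMP 1, 3 and 4, against 59.1, 58.5, 59.8 and 67.1 CPM in WT GMP. In CMP it measured 0.216, 1.39, 1.20 and 1.69 CPM in KO, against 33.8, 40.9, 1.78 and 2.13 CPM in WT. The 4 KO CMP libraries lay together below 2 CPM, and WT CMP 1 and 2 stood alone among the CMP libraries, above 30 CPM. Clec4a2 rose in GMP against CMP by 5.46 ± 0.39 in KO (adjusted p = 2.27e-07) and by 5.04 ± 0.38 in WT (adjusted p = 3.81e-07) in numbers 3 and 4. KO against WT gave 0.0029 ± 0.30 in GMP (adjusted p = 1.0) and -0.42 ± 0.38 in CMP (adjusted p = 0.712). In numbers 1 and 2 it was -3.77 ± 0.47 in GMP and -5.50 ± 0.41 in CMP, as a description.

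Clec4b2 lies 28.9 kb beyond Clec4a2, at 123172893 to 123204671 on the plus strand (ENSMUSG00000067767.5), and followed the same pattern at a lower level. It measured 0.188, 6.76 and 5.60 CPM in KO GMP 1, 3 and 4, against 6.58, 7.86, 6.14 and 9.09 CPM in WT GMP. Among CMP libraries it measured 0, 0.0496, 0.0418 and 0.0335 CPM in KO, against 5.06, 5.74, 0.371 and 0.180 CPM in WT. KO CMP therefore lay below WT CMP in every library, with almost no fragments. That is a description, because numbers 1 and 2 chose the genes, and 22.0% of all genes separated in this way in numbers 3 and 4. Over numbers 3 and 4, KO GMP held 259 fragments and KO CMP held 2, a ratio of 157 with an exact 95% interval of 43.0 to 1302, and the step in WT was 4.77 ± 0.43 (adjusted p = 1.83e-06). Intervals of this kind cover counting error only, and they assume that 4 deposited units are 1 fragment. KO against WT in CMP 3 and 4 rested on 2 against 14 fragments, which is 7.76-fold lower with an interval of 1.78 to 70.3, and did not pass (adjusted p = 0.244). That call was made without KO CMP 1 (adjusted p = 0.0421) or without KO CMP 2 (adjusted p = 0.0424), and its adjusted p ran from 0.0421 to 0.948 over the alternatives. In CMP 1 and 2 the description was 1 against 222 fragments, 195-fold lower with an interval of 34.7 to 7739.

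Clec7a encodes Dectin-1, through which phagocytes sense fungal cell walls, and lies 12.5 kb from Olr1, at 129461591 to 129472779 on the minus strand (ENSMUSG00000079293.11). It measured 10.01, 33.4 and 34.2 CPM in KO GMP 1, 3 and 4, against 49.3, 45.1, 39.1 and 43.6 CPM in WT GMP. Its CMP levels were 3.17, 5.93, 17.7 and 17.8 CPM in KO, against 21.8, 27.7, 21.5 and 22.5 CPM in WT. Over all library numbers, every KO library lay below every WT library of its cell type, a description because numbers 1 and 2 chose the genes. In numbers 3 and 4 alone, 18.5% of all genes lay lower in KO GMP without overlap and 22.0% in KO CMP. The distance was large in numbers 1 and 2, with -2.25 ± 0.27 in GMP and -2.42 ± 0.21 in CMP. The distance in numbers 3 and 4 was -0.29 ± 0.19 in GMP (adjusted p = 1.0) and -0.31 ± 0.19 in CMP (adjusted p = 0.584), and neither passed. Clec7a rose in GMP against CMP by 0.94 ± 0.20 in KO (adjusted p = 0.00216) and by 0.93 ± 0.19 in WT (adjusted p = 0.00237).

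Clec10a encodes a macrophage galactose-type lectin (MGL1), which binds galactose and N-acetylgalactosamine, and it is the one member outside chromosome 6. It lies on chromosome 11 at 70156197 to 70170834, plus strand (ENSMUSG00000000318.16), 18.6 kb from its close relative Mgl2 and 830.4 kb from Trappc1. Of its 50-base windows, 10.6% occur unchanged in Mgl2, so the counts of the pair may be partly exchanged. Clec10a measured 6.41, 19.0 and 19.8 CPM in KO GMP 1, 3 and 4, against 19.5, 16.1, 28.3 and 29.0 CPM in WT GMP. In CMP it measured 8.39, 8.95, 28.2 and 31.9 CPM in KO, against 12.8, 11.3, 48.2 and 57.7 CPM in WT. Its highest libraries were WT CMP 3 and 4, the opposite of the pattern of Clec4a2 and Olr1. In numbers 3 and 4 both KO libraries of Clec10a lay below both WT libraries in each cell type, as 18.5% of all genes did in GMP and 22.0% in CMP. Within numbers 3 and 4 it fell in GMP against CMP, with -0.62 ± 0.12 in KO (adjusted p = 0.00145) and -0.87 ± 0.12 in WT (adjusted p = 9.07e-05), while GMP lay above CMP in WT 1 and 2. KO against WT was -0.56 ± 0.12 in GMP (adjusted p = 0.295) and -0.81 ± 0.12 in CMP (adjusted p = 0.0883). Both missed the threshold in the edgeR fit and both passed in DESeq2 (adjusted p = 0.0217 in GMP and 2.21e-06 in CMP). With the library number as a block the CMP value passed in edgeR (-0.81, adjusted p = 0.0278), and over all alternatives its adjusted p ran from 2.21e-06 to 0.307. In the libraries that chose the genes, KO against WT was -1.48 ± 0.16 in GMP 1 and 2 and -0.46 ± 0.13 in CMP 1 and 2, without a test. Mgl2 changed by -0.08 ± 0.13 in GMP 3 and 4 (adjusted p = 1.0) and by -0.89 ± 0.14 in CMP 3 and 4 (adjusted p = 0.093), while its step for GMP against CMP, 3.75 ± 0.15 in KO (adjusted p = 1.89e-09) and 2.94 ± 0.14 in WT (adjusted p = 9.3e-09), had the opposite sign to that of Clec10a.

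Clec4e and Clec4d encode Mincle and MCL, a pair of receptors for mycobacterial glycolipids that associate with each other, and their genes face each other 6.5 kb apart at the end of the Clec4 cluster. Clec4e lies at 123281789 to 123289870 on the minus strand (ENSMUSG00000030142.10) and Clec4d at 123262111 to 123275265 on the plus strand (ENSMUSG00000030144.4). Clec4e measured 37.8, 32.0 and 30.0 CPM in KO GMP 1, 3 and 4, against 22.0, 20.4, 28.9 and 27.8 CPM in WT GMP. The CMP values were 42.5, 44.6, 20.9 and 24.8 CPM in KO, against 19.8, 20.3, 21.6 and 20.7 CPM in WT. The KO libraries numbered 1 and 2 were the highest of all, the reverse of Clec12a and Olr1, and the remaining CMP libraries lay within a narrow band. Clec4d measured 7.90, 6.85 and 5.62 CPM in KO GMP 1, 3 and 4, against 5.41, 4.55, 5.59 and 5.06 CPM in WT GMP. Among CMP libraries it measured 9.09, 8.66, 7.65 and 8.39 CPM in KO, against 5.38, 5.53, 5.74 and 7.20 CPM in WT. Every KO library exceeded every WT library of its cell type for Clec4d, a description because numbers 1 and 2 chose the genes. In numbers 3 and 4 alone, 17.6% of all genes lay higher in KO GMP without overlap and 19.9% in KO CMP. Clec4d in KO was there 1.17-fold the WT level in GMP and 1.24-fold in CMP. Clec4e rose in GMP against CMP by 0.45 ± 0.09 in KO (adjusted p = 0.00191) and by 0.43 ± 0.09 in WT (adjusted p = 0.00258). For Clec4d the same step was -0.35 ± 0.17 in KO (adjusted p = 0.139) and -0.27 ± 0.17 in WT (adjusted p = 0.258). KO against WT in numbers 3 and 4 was 0.13 ± 0.09 in GMP (adjusted p = 1.0) and 0.11 ± 0.09 in CMP (adjusted p = 0.677) for Clec4e. For Clec4d it was 0.23 ± 0.17 in GMP (adjusted p = 1.0) and 0.31 ± 0.17 in CMP (adjusted p = 0.53). In numbers 1 and 2 Clec4e was 0.83 ± 0.11 in GMP and 1.14 ± 0.09 in CMP, and Clec4d was 0.66 ± 0.21 in GMP and 0.72 ± 0.17 in CMP.

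Clec4a1 and Clec4a3 are close relatives of Clec4a2 at the other end of the cluster, at 122921848 to 122934619 (ENSMUSG00000049037.8) and 122952515 to 122969875 (ENSMUSG00000043832.13) on the plus strand. Both were near the lower limit of detection. Clec4a1 ranged from 0.928 to 1.60 CPM in KO GMP and from 0.212 to 2.01 CPM in WT GMP, and from 0.189 to 1.18 CPM in KO CMP and from 0.312 to 0.901 CPM in WT CMP. Clec4a3 ranged from 1.29 to 1.84 CPM in KO GMP and from 0.760 to 2.36 CPM in WT GMP, and from 0.122 to 1.02 CPM in KO CMP and from 0.144 to 0.540 CPM in WT CMP. Over all numbers KO and WT overlapped for both genes in each cell type, and neighbouring groups in the order of their means overlapped as well. Within each genotype, every GMP library lay above every CMP library for Clec4a3, while the gates overlapped for Clec4a1. The share of all genes separated in this way was not counted. Of the 2, Clec4a3 came closer to a call for GMP against CMP in numbers 3 and 4, with 1.66 ± 0.71 in KO (adjusted p = 0.095) and 1.86 ± 0.72 in WT (adjusted p = 0.0604), and Clec4a1 measured 0.96 ± 0.69 in KO (adjusted p = 0.322) and 1.16 ± 0.69 in WT (adjusted p = 0.224). KO against WT had standard errors of 0.68 to 0.71 for both genes in both cell types, so a 2-fold difference would lie within 2 standard errors of no difference at this depth.

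**Figure D3:**
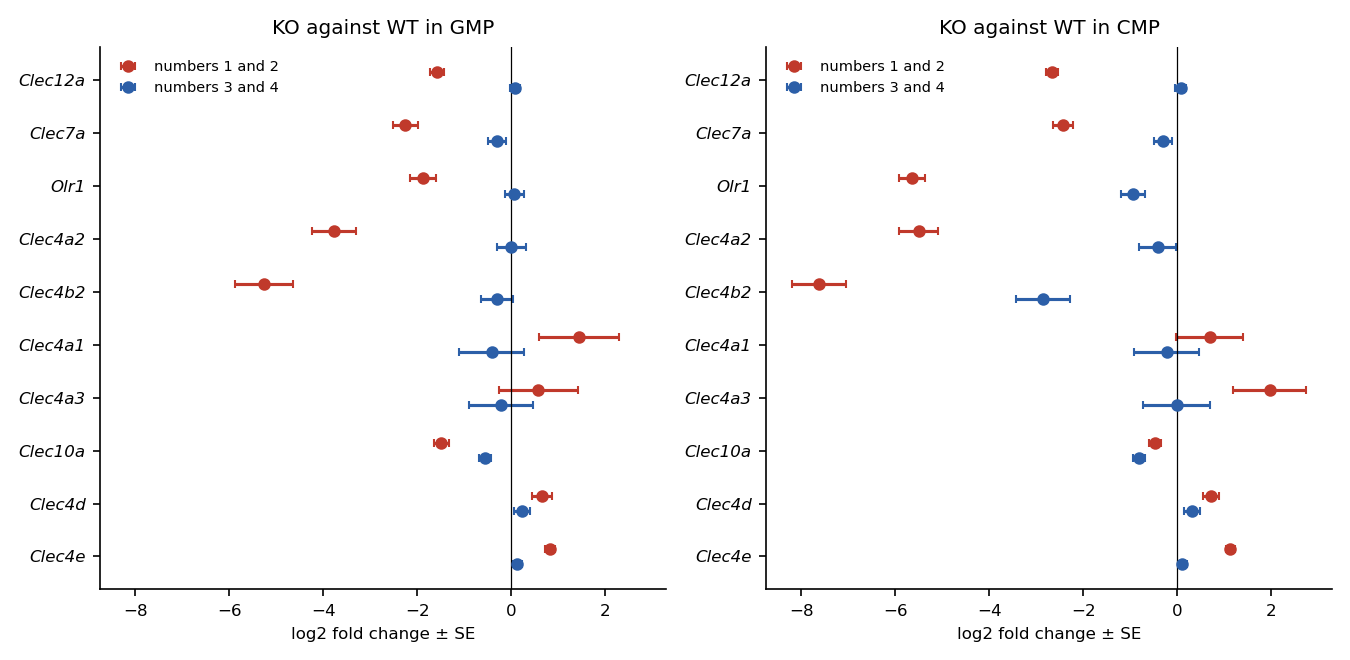
KO against WT for each gene, with GMP on the left and CMP on the right. The horizontal axes are log2 fold changes with their standard error, red for numbers 1 and 2, where KO GMP is 1 library, and blue for numbers 3 and 4. Clec12a, Clec7a, Olr1, Clec4a2 and Clec4b2 lie far below 0 in red and closer to 0 in blue in both cell types, and Clec4d and Clec4e lie above 0 in red.

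The order of the groups depended on the number set for the genes that step up between the gates. In numbers 3 and 4, Clec12a averaged 755 ± 7.36 CPM in KO GMP and 713 ± 52.2 CPM in WT GMP, and 195 ± 15.1 CPM in KO CMP and 185 ± 24.6 CPM in WT CMP (SD, n = 2 each). KO and WT overlapped within each cell type. In numbers 1 and 2 the order was WT GMP, WT CMP, KO GMP and KO CMP, with no overlap between neighbours, and the same order held for Clec4a2, Clec4b2, Olr1 and Clec7a. That order is a description, because these libraries chose the genes, and KO GMP is 1 library there. The share of all genes in this order was not counted. For GMP against CMP in WT 1 and 2 the description was 0.71 ± 0.12 for Clec12a, 0.67 ± 0.31 for Clec4a2, 0.67 ± 0.20 for Olr1 and 0.43 ± 0.35 for Clec4b2. For each of these 4 genes WT CMP 1 and 2 lay above WT CMP 3 and 4. The step of Clec10a had the opposite sign in WT 1 and 2, where GMP lay above CMP by 0.57 ± 0.12, and it was -0.45 ± 0.16 in KO 1 and 2. Clec4e measured 0.09 ± 0.09 in WT 1 and 2 and -0.22 ± 0.11 in KO 1 and 2, so its step in KO also had the opposite sign there. Over all 8 WT libraries with 1 coefficient per group, 1 of the 10 genes passed for GMP against CMP (Clec4a3, 11.3% of all genes higher), and the 7 genes named above did not. The difference between the KO effects in GMP and CMP within numbers 3 and 4 was called for 0 of 10 genes in edgeR and in DESeq2, with 0.00618% of all genes called in each direction. At an unadjusted p below 0.05, 2 of the 10 (Olr1 and Clec4b2) and 551 of all genes differed.

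Per kilobase of exon, Clec12a led in both gates, and the ranks behind it differed. Mean levels in WT GMP 3 and 4 were 129 CPM per kb for Clec12a, 21.7 for Clec4a2, 15.7 for Clec7a, 9.88 for Clec10a and 7.84 for Olr1. Below these came Clec4b2 at 6.49, Clec4e at 5.71, Clec4d at 3.33, Clec4a3 at 1.37 and Clec4a1 at 1.12 CPM per kb. In WT CMP 3 and 4, Clec12a again came first at 33.5 CPM per kb, but Clec10a came next at 18.3 and then Clec7a at 8.34. Clec4e at 4.27 and Clec4d at 4.05 CPM per kb followed, and Clec4a2, Clec4a1, Clec4a3, Olr1 and Clec4b2 lay between 0.235 and 0.669 CPM per kb.

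Within the Clec4 cluster, the members differed in pattern. The Clec4 cluster spans 6 members, in the order Clec4a1, Clec4a3, Clec4a2, Clec4b2, Clec4d and Clec4e, with 347.2 kb between the end of the first and the start of the last. In KO CMP 1 and 2 the 2 inner members, Clec4a2 and Clec4b2, were far below WT, and the outer members were not. Clec4d and Clec4e lay above WT in both KO libraries. Clec4a1 and Clec4a3 lay above it in KO CMP 2 only, with 1.18 CPM for Clec4a1 and 1.02 CPM for Clec4a3. KO CMP 1 lay below both WT libraries for these genes, with 0.189 CPM against 0.543 and 0.312 CPM for Clec4a1 and 0.122 CPM against 0.148 and 0.144 CPM for Clec4a3. The members of the second cluster, Clec12a, Clec7a and Olr1, were all lower in KO CMP 1 and 2, which chose the genes. Other genes of that stretch were not compared. Correlations of log2 (CPM + 1) across the 15 libraries, which share depth and number set, ranged from 0.92 to 0.98 among Clec4a2, Clec4b2, Clec12a and Olr1. Clec7a followed them at 0.78 to 0.91. Clec4d ran against them at -0.85 to -0.80, and Clec10a lay between -0.08 and 0.16. The libraries that chose the genes take part in all these correlations, which are a description. Among genes of at least 5 CPM, Clec4b2 was closest to Clec4a2 (0.984). The closest to Clec4a2, Clec12a and Olr1 were genes outside the 10, Rhou (0.991), Elane (0.993) and Abca13 (0.996). Outside the 10 genes, the profiles most like their mean, at the same limit, were those of AB124611 (Pearson r = 0.975), Wdr1 (0.965), Ear3 (0.965), Pnp (0.964) and Itm2b (0.962), over 15 libraries.

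**Figure D4:**
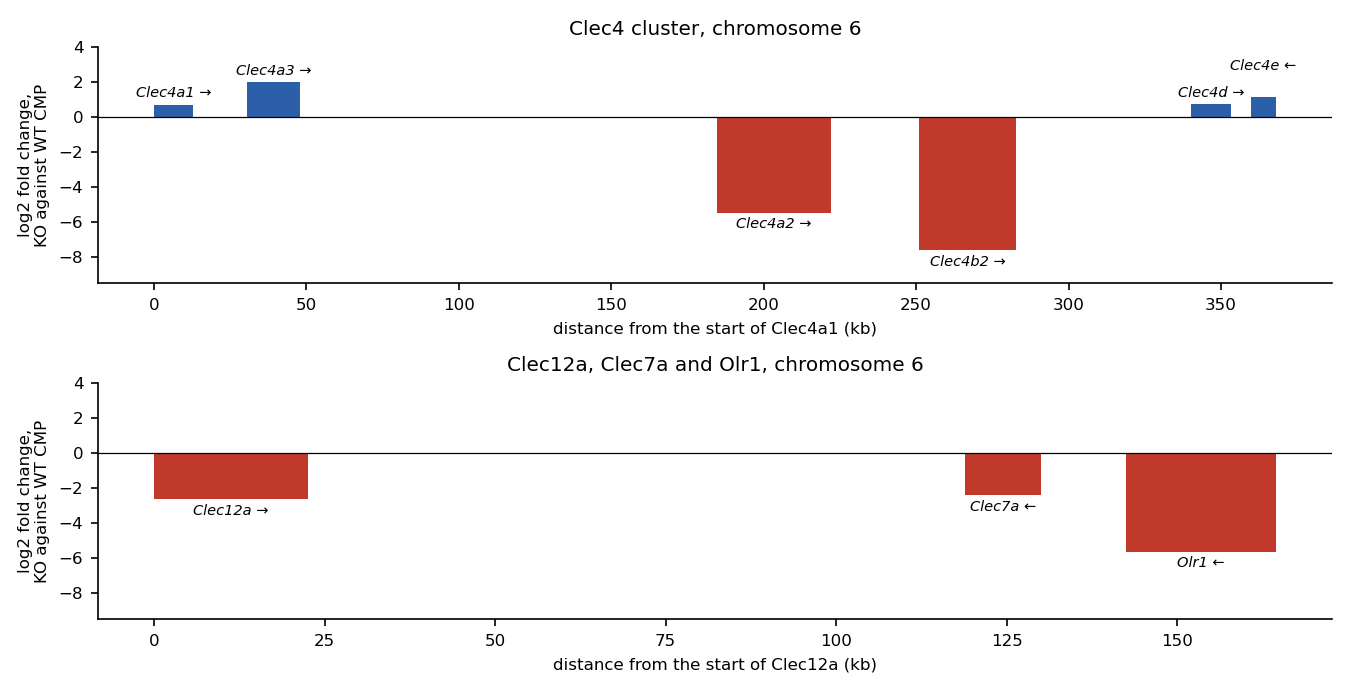
KO against WT in CMP libraries 1 and 2 along the 2 clusters of chromosome 6. The horizontal axes are distances in kb from the start of Clec4a1 and of Clec12a, bars span each gene, arrows give its strand, and the vertical axes are log2 fold changes, shown without a test because these libraries chose the genes. Clec4a2, Clec4b2, Clec12a, Clec7a and Olr1 lie below 0, and Clec4d and Clec4e lie above it. The bars of Clec4a1 and Clec4a3 lie above 0 through KO CMP 2 alone, and the Clec4b2 bar rests on 1 fragment in KO.

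Among 34 other C-type lectin genes, 20 averaged at least 1 CPM over the libraries, 10 at least 10 CPM and 1, Cd93, at least 100 CPM. Within numbers 3 and 4, 7 of the 34 rose and 9 fell in KO GMP against KO CMP, and 7 rose and 10 fell in WT GMP against WT CMP. Of all tested genes, 16.5% rose and 17.7% fell in KO, and 17.7% rose and 17.8% fell in WT. The smallest p-values belonged to the same 5 genes in both genotypes. Mgl2 rose, as given above, and Clec5a, which pairs with the adaptor DAP12, rose by 2.90 ± 0.16 in KO (adjusted p = 2.69e-08) and by 2.74 ± 0.16 in WT (adjusted p = 4.37e-08). Cd72, an inhibitory receptor best known from B cells, fell, with -1.80 ± 0.15 in KO (adjusted p = 8.85e-07) and -1.60 ± 0.15 in WT (adjusted p = 2.28e-06). Clec9a, a receptor of cross-presenting dendritic cells, fell, with -2.70 ± 0.33 in KO (adjusted p = 3.39e-05) and -3.55 ± 0.34 in WT (adjusted p = 3.54e-06). The endocytic receptor Mrc2 was also called lower in both genotypes, and its GMP libraries 3 and 4 held 0.0839 and 0.0431 CPM in KO and 0 and 0.0519 CPM in WT. The median over the 34 genes was -0.19 in KO and -0.70 in WT. For KO against WT, 0 of 34 passed in GMP and 0 in CMP in edgeR, with 2 and 5 at an unadjusted p below 0.05. Of all 16183 tested genes, 781 in GMP and 1744 in CMP reached that unadjusted p.

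Of the signalling genes behind these receptors, 28 of 34 averaged at least 10 CPM over the libraries. In KO GMP against KO CMP 9 rose and 7 fell, and in WT GMP against WT CMP 8 rose and 9 fell. The shares of all tested genes were 16.5% and 17.7% in KO, and 17.7% and 17.8% in WT. Card9, the scaffold that links Syk to NF-kB, rose by 0.80 ± 0.09 in KO (adjusted p = 1.19e-05) and by 0.81 ± 0.09 in WT (adjusted p = 1.18e-05). Fcer1g, the partner chain of Clec4e, rose by 0.52 ± 0.07 in KO (adjusted p = 0.000123) and by 0.65 ± 0.07 in WT (adjusted p = 1.96e-05). The transcription factor gene Nfatc2 fell, with -2.19 ± 0.20 in KO (adjusted p = 2.59e-06) and -2.82 ± 0.21 in WT (adjusted p = 3.07e-07), and the kinase gene Src fell, with -3.63 ± 0.47 in KO (adjusted p = 5.36e-05) and -3.92 ± 0.48 in WT (adjusted p = 3.21e-05). For KO against WT, 0 of the 34 passed in GMP and 0 in CMP in edgeR, with 2 and 6 at an unadjusted p below 0.05, beside 781 and 1744 of all 16183 tested genes. Fcer1g and Tyrobp, the partner chain DAP12, were picked out after their values were seen, as were Syk and Ptpn6. Fcer1g measured 71.9 CPM in KO GMP 1 against 156 and 147 CPM in WT GMP 1 and 2, and 34.2 and 36.1 CPM in KO CMP 1 and 2 against 64.5 and 67.4 CPM in WT CMP 1 and 2. Tyrobp measured 61.9 CPM in KO GMP 1 against 167 and 151 CPM in WT GMP 1 and 2, and 35.0 and 48.6 CPM in KO CMP 1 and 2 against 109 and 118 CPM in WT CMP 1 and 2. Syk and Ptpn6 kept within 182 to 241 CPM and 199 to 275 CPM over all 15 libraries.

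The summed markers of several other cell types also differed between KO and WT in numbers 1 and 2, some lower in KO and some higher. The 13 monocyte and macrophage markers, all in the files and none at 0 in any group, summed to 1151 CPM in KO GMP 1 and to 4736 to 5083 CPM in WT GMP 1 and 2, and to 500 to 711 CPM in KO CMP 1 and 2 and 2195 to 2439 CPM in WT CMP 1 and 2. The same markers in numbers 3 and 4 summed to 3950 to 3989 CPM in KO GMP and 4505 to 4547 CPM in WT GMP, and to 1552 to 1564 CPM in KO CMP and 1824 to 1840 CPM in WT CMP. The late neutrophil list, with 12 of 13 in the files and Stfa2 at 0 in every group but KO CMP, summed to 249 CPM in KO GMP 1 and to 487 to 497 CPM in WT GMP 1 and 2, and to 166 to 171 CPM in KO CMP 1 and 2 and 430 to 469 CPM in WT CMP 1 and 2. The 7 eosinophil markers summed to 575 CPM in KO GMP 1 and to 1558 to 1583 CPM in WT GMP 1 and 2, and to 5.68 to 36.4 CPM in KO CMP 1 and 2 and 311 to 351 CPM in WT CMP 1 and 2. The 10 dendritic cell markers, with Siglech at 0 in KO GMP 1 and in WT GMP 1 and 2, ran otherwise, at 714 CPM in KO GMP 1 and 199 to 200 CPM in WT GMP 1 and 2, and at 502 to 875 CPM in KO CMP 1 and 2 and 774 to 790 CPM in WT CMP 1 and 2. The 10 gate and progenitor genes summed to 22923 CPM in KO GMP 1 and to 39915 to 40984 CPM in WT GMP 1 and 2, and to 6007 to 6558 CPM in KO CMP 1 and 2 and 22842 to 25370 CPM in WT CMP 1 and 2. Mpo alone measured 14905 CPM in KO GMP 1 and 22643 and 24009 CPM in WT GMP 1 and 2. The sum therefore mostly follows that gene. In numbers 3 and 4 this list summed to 44391 to 44674 CPM in KO GMP and 42499 to 42675 CPM in WT GMP. In CMP it summed there to 12936 to 13487 CPM in KO and 12768 to 13502 CPM in WT. For numbers 3 and 4 the late neutrophil list summed to 947 to 985 CPM in KO GMP and 864 to 1002 CPM in WT GMP, and to 213 to 216 CPM in KO CMP and 216 to 219 CPM in WT CMP. The eosinophil list summed there to 3658 to 3718 CPM in KO GMP and 5535 to 7185 CPM in WT GMP, and to 16.9 to 29.6 CPM in KO CMP and 32.1 to 37.5 CPM in WT CMP.

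The remaining lists include some that were higher in KO 1 and 2. The 7 megakaryocyte markers, all in the files, summed to 304 CPM in KO GMP 1 and to 91.1 to 99.2 CPM in WT GMP 1 and 2, and to 493 to 720 CPM in KO CMP 1 and 2 and 349 to 352 CPM in WT CMP 1 and 2. In numbers 3 and 4 they summed to 75.9 to 79.9 CPM in KO GMP and 89.2 to 94.4 CPM in WT GMP, and to 438 to 452 CPM in KO CMP and 404 to 408 CPM in WT CMP. The 9 stroma and endothelium markers summed to 234 CPM in KO GMP 1 and to 119 to 123 CPM in WT GMP 1 and 2, and to 282 to 324 CPM in KO CMP 1 and 2 and 135 to 140 CPM in WT CMP 1 and 2. Of the stroma and endothelium markers Col1a1, Col3a1, Cdh5 and Kdr were at 0 in WT GMP 1, and Cdh5 in WT GMP 2 and KO CMP 2. The megakaryocyte sum and the stroma and endothelium sum were thus higher in KO than in WT in numbers 1 and 2 of each cell type. The 8 mast cell and basophil markers summed to 1238 CPM in KO GMP 1 and to 1252 to 1288 CPM in WT GMP 1 and 2, and to 107 to 117 CPM in KO CMP 1 and 2 and 195 to 228 CPM in WT CMP 1 and 2. In GMP 3 and 4 that list summed to 639 to 675 CPM in KO and 1146 to 1167 CPM in WT. The 7 T and NK cell markers summed to 256 CPM in KO GMP 1 and to 366 to 368 CPM in WT GMP 1 and 2, and to 149.6 to 187 CPM in KO CMP 1 and 2 and 240.2 to 261 CPM in WT CMP 1 and 2. Of these markers Cd3e, Cd3g, Cd8a and Cd4 were at 0 in WT GMP 1, and Cd3g and Ncr1 in WT GMP 2. Cd3e was at 0 in KO GMP 1 and KO CMP 1. The GMP sums thus rest on the other genes of the list. Over all libraries the 6 B cell markers summed to 24.3 to 51.7 CPM in KO and 34.3 to 42.3 CPM in WT, and the erythroid markers, with 8 of 9 in the files, to 10.6 to 72.4 CPM in KO and 8.94 to 53.7 CPM in WT. The part of these cells in the receptor values was not tested. In numbers 3 and 4 no gene of the 11 marker lists was called for KO against WT in either cell type.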

How the data were processed

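Messenger RNA libraries were made with the SMARTER kit, per the labels' protocols, and reads were aligned with HISAT to mm10, per the submitters' processing notes. Neither the counting tool nor its version is given in the sources used here, and the files hold, as deposited by the authors, an estimated count for each gene symbol without scaling of the libraries to each other. Multiples of 4 made up 38.0% of the 40915 values from 1 to 40, where an even spread would give 25%. On that basis 4 units were taken as 1 fragment, although most of these values were not multiples of 4. Fragment numbers and their intervals rest on this assumption. Library totals were 61.3 M to 120.3 M units. None of 105 library pairs was identical.

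Counts were rounded and scaled by TMM in edgeR 4.0.16 (R 4.3.3). A single quasi-likelihood fit held 1 coefficient for each of 8 combinations of group and number set, with genes kept by filterByExpr (16183) and 7 residual degrees of freedom. Two-sided p-values received Benjamini-Hochberg adjustment across every gene in the fit, and calls needed an adjusted p below 0.05. Self-tests on simulated counts were run first. Alternatives were RLE scaling, no filter, DESeq2 1.42.0, counts divided by 4, numbers 3 and 4 alone, the library number as a block and each library left out in turn. Groups and numbers came from titles and characteristics. A KO GMP library numbered 2 was not analysed here.

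Deviations of same-numbered libraries from their group means correlated at 0.12 to 0.37 in every pair. Other numbers reached up to 0.35, and within a number set the same-number values were 0 to 0.05, so pairing by single number was not shown. The main fit held no term for the single number, and the block was run as an alternative.

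All 10 members are named, with Trappc1 as the check of the labels and, from lists of 34 other C-type lectin genes, 34 signalling genes and 11 sets of cell type markers, the called genes with the smallest p. The members and lists were chosen with earlier results of these data known. Positions and exon lengths come from GENCODE M21 (GRCm38) and promoters from RefSeq. The level per kilobase divides CPM by the length of all exons of a gene.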

Additional observations from a re-analysis of the deposited data

Results flagged for a closer look

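In 30 combinations of a receptor gene and a group of 4 libraries, 1 library was checked for lying far from the other 3, and chance alone marks about 1 in 20. Clec4a2 in WT GMP library 4 measured 67.1 CPM, above 58.5 to 59.8 CPM in WT GMP 1 to 3. Clec7a in WT CMP library 2 measured 27.7 CPM, above 21.5 to 22.5 CPM in the other WT CMP libraries. The KO GMP group has 3 libraries and was not checked in this way, although KO GMP 1 lay below KO GMP 3 and 4 for 7 of the 10 genes. That count is a description, because KO GMP 1 is among the libraries that chose the genes. The share of all genes was not counted, and for Clec4a1 the gap was only 0.928 CPM in KO GMP 1 against 1.01 CPM in KO GMP 4.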

How the results depend on the processing

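KO against WT in CMP 3 and 4 gave 0 of 10 genes in the fit reported, 1 with no filter on low counts, 1 with only libraries numbered 3 and 4, 1 with the replicate block (Clec10a in each) and 2 with DESeq2 (Clec10a and Olr1). Leaving out single libraries gave 0 to 3 there. Without KO CMP 1 or KO CMP 2 the 3 genes were Clec10a, Clec4b2 and Olr1, beside 0.236% and 0.237% of all genes called lower, and without WT CMP 3 the 1 gene was Clec10a. In GMP the count was 0, and 1 with DESeq2 (Clec10a). GMP against CMP in WT gave 7, and 1 (Clec4a3) over all 8 WT libraries with 1 coefficient per group. The block changed no other call of these genes, and the difference of KO effects stayed at 0 under each alternative. Among single values 11 changed sign, none of them past the threshold. With counts divided by 4, Clec4a3 was 0.040 in CMP, against -0.0089. When single libraries were left out, the ranges in CMP were -0.70 to 0.15 for Clec4a1, -0.54 to 0.38 for Clec4a3, -0.011 to 0.23 for Clec4e and -0.061 to 0.23 for Clec12a. In GMP they were -0.081 to 0.092 for Clec4a2, -0.60 to 0.29 for Clec4a3 and -0.56 to 0.013 for Clec4b2. The cause was not tested in any of these. RLE scaling moved the median of all genes by -0.015 to 0.010. Depth limits Clec4a1, Clec4a3 and, in KO CMP, Clec4b2.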
